A study of Rattus norvegicus with 10 samples.

Results

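Peptide and amino acid transporters are described here across 10 rat distal colon libraries. The members were 10 genes given by name and matched by symbol to the deposited table of 23422 genes: the peptide carrier Slc15a1, the amino acid carriers Slc6a14, Slc6a19, Slc1a1 and Slc1a5, the light chains Slc7a5, Slc7a8 and Slc7a9, and the heavy chains Slc3a1 and Slc3a2. All 10 were found, and 8 passed the filter on low counts. The choice used no measured value of these genes as a rule, but it was made with earlier results of these data known.

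The animals were male Wistar Munich rats weighing 284 to 347 g, with no age given in the sources used here. Of 12 rats, 6 ate plain chow and 6 were switched, after 3 days in metabolic cages, to chow with sodium cholate, a primary bile acid salt, at 1% by weight, and all were killed after 10 days on the diets. RNA came from epithelial cells shaken off the distal colon segment in EDTA, and the 5 rats per diet with the most concentrated RNA were sequenced, so the choice of rats was not random. The groups were therefore control rats 1, 2, 5, 6 and 9 and cholate rats 3, 4, 7, 8 and 11, all on the same chow base and all of 1 strain and sex.

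Cells take up the products of protein digestion either as short peptides or as single amino acids. The peptide carrier is driven by protons, most apical amino acid carriers are driven by sodium, and the heteromeric carriers exchange 1 amino acid for another after a light chain has joined a heavy chain that brings it to the membrane. In the gut most dietary peptides and amino acids are absorbed in the small intestine, where Slc15a1, Slc6a19 and the Slc3a1 and Slc7a9 pair are best known, whereas Slc6a14 is known from the colon.

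The 5′ ends of 3 genes that the results turn on are shown first, because Slc15a1 was the transporter called on cholate, Slc6a14 was the most abundant and Slc7a5 split the cholate rats. Each is the RefSeq window on GRCr8 from 250 bases before to 50 bases after the annotated start, 5′ to 3′ on the gene's strand, with CG dinucleotides in capitals. RefSeq gave a window for 8 of the 10 genes, so Slc1a1 and Slc1a5 are named only. The windows lie at chr15:104949295-104949594 on the minus strand for Slc15a1, at chrX:117144676-117144975 on the plus strand for Slc6a14 and at chr19:66872363-66872662 on the minus strand for Slc7a5.
Slc15a1: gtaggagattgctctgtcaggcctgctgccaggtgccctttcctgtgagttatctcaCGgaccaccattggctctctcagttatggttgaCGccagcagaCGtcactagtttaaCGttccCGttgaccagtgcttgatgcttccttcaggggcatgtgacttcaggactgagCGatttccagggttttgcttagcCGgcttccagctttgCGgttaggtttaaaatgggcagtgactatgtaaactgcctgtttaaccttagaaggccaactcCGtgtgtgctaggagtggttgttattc
Slc6a14: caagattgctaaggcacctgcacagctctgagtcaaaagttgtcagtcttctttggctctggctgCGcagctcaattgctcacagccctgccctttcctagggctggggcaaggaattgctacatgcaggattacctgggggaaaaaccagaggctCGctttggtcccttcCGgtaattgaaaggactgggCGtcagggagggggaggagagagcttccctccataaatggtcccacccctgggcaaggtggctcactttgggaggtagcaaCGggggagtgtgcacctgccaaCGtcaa
Slc7a5: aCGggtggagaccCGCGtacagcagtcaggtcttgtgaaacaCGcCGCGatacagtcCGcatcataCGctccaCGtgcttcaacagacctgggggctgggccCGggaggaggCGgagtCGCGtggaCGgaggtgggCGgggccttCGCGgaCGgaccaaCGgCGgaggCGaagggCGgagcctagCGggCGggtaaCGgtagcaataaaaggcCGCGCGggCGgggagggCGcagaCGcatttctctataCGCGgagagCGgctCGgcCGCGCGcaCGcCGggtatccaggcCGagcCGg

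The Slc7a5 window held 42 CG dinucleotides, more than 97.6% of 33469 RefSeq windows of this length, against 9 for Slc15a1 and 6 for Slc6a14, near the median of 7. The letters TGATGNAA, the core of the element bound by C/EBP and ATF factors, were searched on both strands and occurred in none of the 9 windows of these genes, against 3.98% of all windows. The hexamers AGGTCA and TGACCT with 1 base between them, the inverted repeat known for the bile acid receptor, were also in none, against 0.0269% of all windows. Both motifs are so rare that most sets of 9 windows would hold neither, so their absence says little about these genes.

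Library totals ran from 14337356 to 45285762 counts. Levels are CPM, the count of a gene scaled to a common library size after TMM scaling, which equalises the bulk of genes between libraries, and errors are SD over 5 rats. The first principal component of the tested genes held 46.8% of the variance and did not follow diet. On it, control rat 9 and cholate rats 8 and 11 lay between -79.6 and -57.0. Control rat 5 lay at -8.08, and the other 6 rats between 26.7 and 46.4. The second component held 30.6% and set the diets apart, with controls at 27.9 to 44.9 and cholate rats at -54.9 to -15.4. The 3 libraries at the far low end of the first component had the smallest TMM factors, 0.860 to 0.924. They also had the smallest totals, 14337356 to 19883925 counts, against at least 25004778 in the others. Summed markers of epithelium were 13950 to 24190 CPM and those of colonocytes 3641 to 12680 CPM in single rats, with all 8 markers of each list present. T cell markers summed to at most 30.1 CPM and B and plasma cell markers to at most 5.63 CPM. Macrophage and dendritic cell markers summed to 209 to 282.9 CPM in controls and 215.4 to 280.1 CPM on cholate, most of it Cd14 at means of 226.6 and 225.6 CPM. In bulk RNA, fewer cells of a type and less RNA per cell cannot be told apart.

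In control colon the levels of the 10 genes spread from Slc6a14 at the top to Slc3a1 at the bottom. Per kilobase of coding length, mean control levels were 117.1 CPM for Slc6a14, 48.0 for Slc3a2, 33.4 for Slc1a5, 29.2 for Slc1a1, 13.9 for Slc15a1, 7.46 for Slc7a5, 4.86 for Slc7a8, 1.07 for Slc7a9, 0.155 for Slc6a19 and 0.0103 for Slc3a1. The 5 control values of neighbours in this order overlapped from Slc6a14 down to Slc7a5 and did not overlap from Slc7a5 down to Slc3a1. Slc6a14 stood above 90.7% of tested genes on the same scale, and Slc15a1 above 47.1%. With exon length in place of coding length, Slc1a1 and Slc1a5 exchanged places and the other 8 kept theirs. On cholate Slc15a1 came after Slc7a8 in the order, and Slc1a5 before Slc3a2, but the cholate values overlapped in both pairs.

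**Figure D1:**
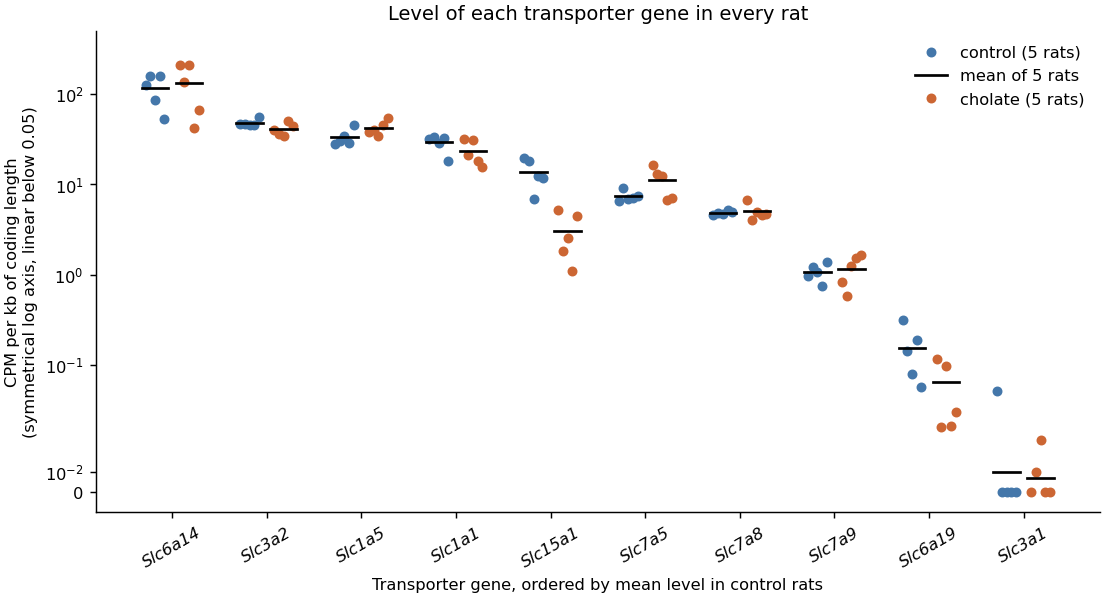
Levels of the 10 transporter genes as CPM per kilobase of coding length, on a symmetrical log axis that is linear below 0.05, with 1 point per rat and a line at the mean of 5 rats per diet. Slc6a14 lies highest and Slc3a1 lowest on both diets, and the diets are apart in Slc15a1, at 6.97 to 19.8 in controls and 1.10 to 5.19 on cholate.

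Of the 8 transporters tested, 1 was called lower on cholate and none higher, where called means an adjusted p under 0.01 and a fold over 2 in the edgeR quasi-likelihood test. Over all 12385 genes tested, 3.21% were called, 1.1% higher and 2.12% lower. The diets did not overlap for 1 of the 8, again Slc15a1, against 13.1% of all genes tested, 6.3% with cholate higher and 6.8% with cholate lower. The median log2 fold change of the 8 was 0.08, against -0.01 over all genes tested. At an adjusted p under 0.05 with no fold limit, Slc15a1 was still the 1 transporter called, against 13.8% of all genes, 6.48% higher and 7.28% lower.

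**Figure D2:**
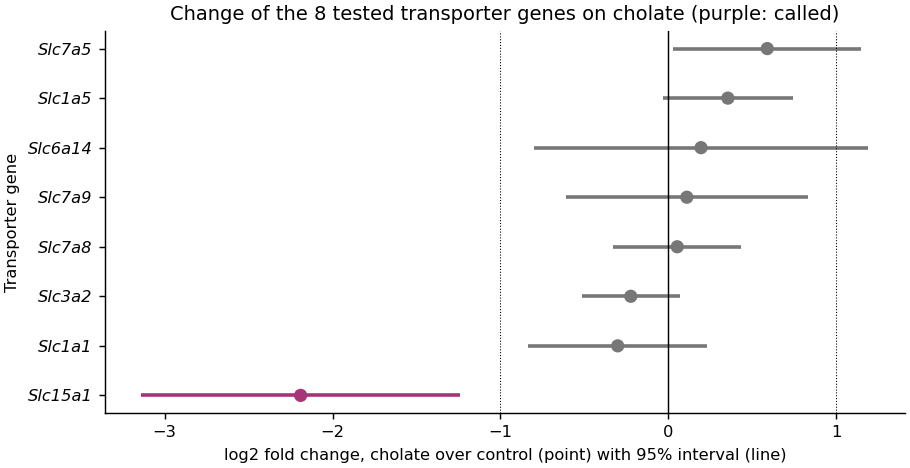
Log2 fold change of cholate over control for the 8 tested transporters, as a point with its approximate 95% interval, and dotted lines at a fold of 2 in each direction. The interval of Slc15a1, -3.14 to -1.24, lies wholly below the lower line, and none of the other 7 lies wholly outside the lines.

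Slc15a1 encodes PEPT1, the proton-coupled carrier of dipeptides and tripeptides in the intestinal brush border (Entrez 117261, rn6 chromosome 15, 106800081 to 106844668, minus strand, 3 annotated transcripts). Its level was 44.0, 40.4, 15.5, 27.9 and 26.3 CPM in control rats 1, 2, 5, 6 and 9 and 11.6, 4.11, 5.73, 2.44 and 10.0 CPM in cholate rats 3, 4, 7, 8 and 11. Every cholate rat lay below every control rat, with the lowest control, rat 5, at 15.5 CPM and the highest cholate rat, rat 3, at 11.6 CPM. The means were 30.8 ± 11.5 and 6.77 ± 3.88 CPM (SD, n = 5 each), a log2 fold change of -2.19 with a standard error of 0.43 (edgeR quasi-likelihood test, adjusted p = 0.00865).

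The Slc15a1 call lay close to the limit. It held without cholate rat 3 or 8 and was lost without control rat 1, 2, 5, 6 or 9 or without cholate rat 4, 7 or 11, with log2 fold changes from -2.48 to -1.98 and edgeR adjusted p from 0.00869 to 0.0264 over these 10 fits. The glmTreat test against a fold of 2 did not call it (adjusted p = 0.131). Among the 6 rats that lay together on the first component it was called at -2.39 (edgeR adjusted p = 0.00459), in a fit that called 310 genes higher and 693 lower. This choice was made after seeing the data. It leaves out the lowest control, rat 5, and the lowest cholate rat, rat 8, so it is no separate support. Exons of Slc15a1 share 167 bases with Lnc004, a long noncoding gene on the opposite strand, and no source used here gives the strand setting of the counting.

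Several marker lists differed between diets beside Slc15a1. Colonocyte markers summed to 3641 to 5367 CPM in controls and 7583 to 12680 CPM on cholate. Car1, Car4 and Krt20 were called higher, 3 of 8, against 1.1% of all genes tested. Aqp8, Slc26a3, Guca2a and Slc9a3 had log2 fold changes of 1.42, 0.95, 0.58 and 0.37 and Scnn1b one of -0.16, and none of these was called. Enteroendocrine markers summed to 210.0 to 279.1 and 291.2 to 542.6 CPM, with Gcg, Pyy and Cck called higher out of 6, against the same 1.1%. The others, Chga, Chgb and Neurod1, had log2 fold changes of -0.081, 0.020 and -0.023 (edgeR adjusted p = 0.840, 0.953 and 0.98). Smooth muscle markers summed to 42.4 to 61.9 and 8.17 to 13.5 CPM, carried by Des and Myh11, while Acta2, Tagln, Cnn1 and Actg2 had means of at most 0.343 CPM on either diet. Endothelial markers summed to 3.84 to 7.86 and 0.759 to 3.45 CPM, carried by Vwf and Pecam1, with Cdh5 and Kdr near 0. The part of these lists in the Slc15a1 result was not tested.

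Slc15a1 is best known from small intestinal enterocytes, and of 10 markers of these cells 9 were in the table. Lct and Alpi had no count in any rat, and the sum was 44.5 to 155.2 CPM in controls and 25.9 to 169.7 CPM on cholate, most of it Apoa1 at means of 55.0 and 37.0 CPM. None of the 7 tested was called, and their median log2 fold change was 1.22. Apoa4, Apob and Fabp6 had log2 fold changes of 2.43, 1.29 and 2.84 (edgeR adjusted p = 0.0108, 0.0272 and 0.0237). Apoa4 and Fabp6 were at only 0.520 and 0.22 CPM in controls. Fabp1 had a log2 fold change of 1.22 (edgeR adjusted p = 0.27). Those of Apoa1, Mttp and Rbp2 were -0.58, -0.63 and -0.31 (edgeR adjusted p = 0.65, 0.492 and 0.586). The part of these markers in the Slc15a1 result was not tested.

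The tested genes most like Slc15a1 over the 10 rats, by the root mean square difference of centred log2 CPM, were St3gal6 at 0.50, Padi1 at 0.51 and Padi2 at 0.52. St3gal6, a sialyltransferase, was at 2.69 ± 0.734 and 0.698 ± 0.461 CPM on control and cholate diets, and was not called (edgeR adjusted p = 0.0125). Padi1 and Padi2, which encode enzymes that convert arginine residues to citrulline, fell by 2.71 and 2.8 on the log2 scale (edgeR adjusted p = 0.000538 and 0.0015). Once each diet's mean had been taken out, the nearest were Kcnh8 at 0.32, Mn1 at 0.32 and Gria4 at 0.36, and none of these was called between diets (edgeR adjusted p = 0.35, 0.089 and 0.0578).

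Of the apical carriers of neutral amino acids, 1 was abundant and 1 barely detected. Slc6a14, which carries neutral and cationic amino acids with sodium and chloride (Entrez 298340, chromosome X, 120624522 to 120647964, plus strand), was at 244.2, 303.9, 167.4, 307.9 and 102.9 CPM in control rats 1, 2, 5, 6 and 9. On cholate it was at 407.2, 265.0, 408.7, 80.6 and 127.2 CPM in rats 3, 4, 7, 8 and 11. The diets overlapped, and the lowest values on each diet were those of the libraries at the far end of the first component, control rat 9 and cholate rats 8 and 11.

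The means of Slc6a14 were 225.2 ± 89.0 and 257.7 ± 153.0 CPM, a log2 fold change of 0.19 with a 95% interval of -0.80 to 1.19 (edgeR adjusted p = 0.831). Among the 6 rats that lay together, the log2 fold change was 0.37 (edgeR adjusted p = 0.125). Goblet cell markers were high where Slc6a14 was low, with sums of 23780, 16590 and 24710 CPM in control rat 9 and cholate rats 8 and 11 against 7013 to 12660 CPM in the other 7 rats. The same 3 libraries had the smallest scaling factors and the smallest totals. The part of goblet cells, scaling or depth in the Slc6a14 values was not tested.

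Slc6a19, the sodium-coupled neutral amino acid carrier B0AT1 of small intestine and kidney (Entrez 664630, chromosome 1, 32199869 to 32218628, plus strand), was nearly undetected. It had 17, 7, 4, 13 and 2 counts in control rats 1, 2, 5, 6 and 9 and 6, 3, 7, 1 and 1 counts in cholate rats 3, 4, 7, 8 and 11, 43 and 18 in all, and was too low to test. Its means of 0.296 ± 0.194 and 0.122 ± 0.0766 CPM lay near the floor of 3 counts, which was 0.0616 to 0.228 CPM in single libraries, and the diets overlapped. Tmem27, known as collectrin, which brings it to the membrane in kidney, had no count in any rat.

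**Figure D3:**
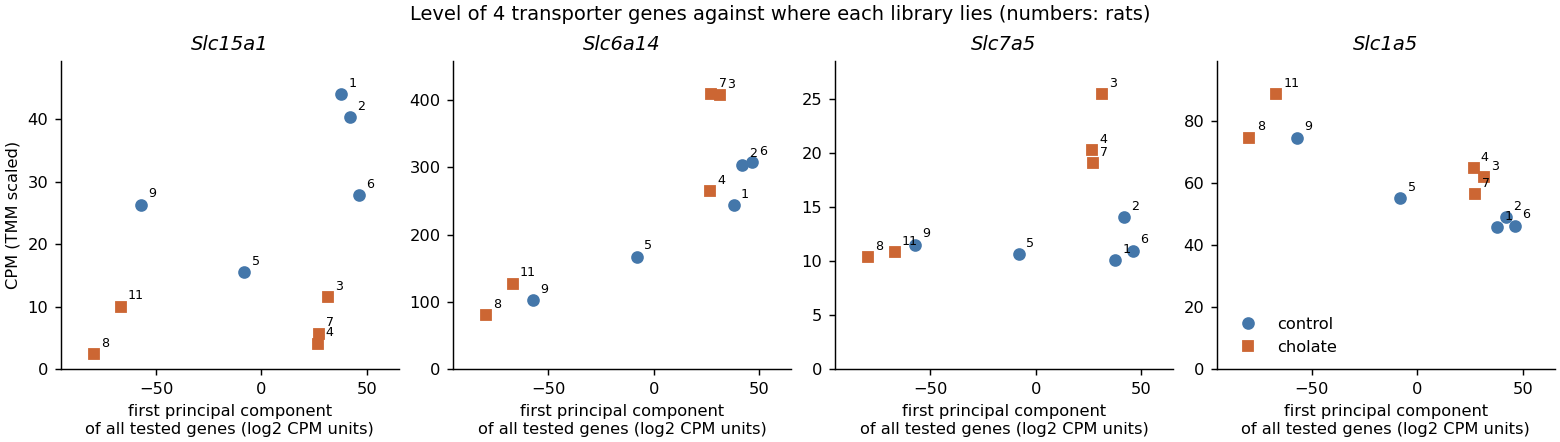
CPM of Slc15a1, Slc6a14, Slc7a5 and Slc1a5 in each library against the library's place on the first principal component of all tested genes, with rat numbers beside the points. Slc6a14 is lowest and Slc1a5 highest in control rat 9 and cholate rats 8 and 11 within their diets, Slc7a5 is high in cholate rats 3, 4 and 7, and in Slc15a1 every cholate rat lies below every control rat.

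Among the heteromeric carriers, the heavy chain Slc3a2, also known as 4F2hc or CD98 (Entrez 50567, chromosome 1, 224906566 to 224921029, minus strand), was steady in controls. It was at 78.8, 79.6, 77.0, 77.8 and 94.9 CPM in control rats 1, 2, 5, 6 and 9 and at 69.0, 61.2, 57.9, 85.6 and 75.8 CPM in cholate rats 3, 4, 7, 8 and 11. The cholate values of rats 3, 4, 7 and 11 lay below all controls and that of rat 8 did not. The log2 fold change was -0.22 with a 95% interval of -0.52 to 0.069 (edgeR adjusted p = 0.299).

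Slc7a5, the light chain LAT1 that exchanges large neutral amino acids (Entrez 50719, chromosome 19, 54693959 to 54722563, minus strand), split the cholate rats. It was at 10.1, 14.1, 10.7, 10.99 and 11.5 CPM in control rats 1, 2, 5, 6 and 9 and at 25.5, 20.3, 19.1, 10.4 and 10.9 CPM in cholate rats 3, 4, 7, 8 and 11. Rats 3, 4 and 7 lay above every control and rats 8 and 11, which stood apart on the first component, lay within the control range. The log2 fold change was 0.59 with a standard error of 0.25 and a 95% interval of 0.030 to 1.15, and was not called (edgeR adjusted p = 0.151).

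The 6 rats that lay together leave out cholate rats 8 and 11, the 2 with low Slc7a5, so their log2 fold change of 0.91 (edgeR adjusted p = 0.0035, under the fold limit) restates that split and is no separate support. Limma-voom with sample quality weights gave 0.81 (adjusted p = 0.00267), in a setting that called 303 genes higher and 847 lower. Without the weights limma-voom gave 0.59 (adjusted p = 0.139), and DESeq2 gave 0.61 (adjusted p = 0.103). Leaving out 1 rat at a time gave 0.41 to 0.74 (edgeR adjusted p = 0.0648 to 0.302). Per kilobase, Slc7a5 was 0.134 to 0.195 of Slc3a2 in the 5 controls. On cholate the ratio was 0.408, 0.367 and 0.364 in rats 3, 4 and 7 and 0.134 and 0.158 in rats 8 and 11, the same split as for Slc7a5 itself. What sets the rats of 1 diet apart was not tested.

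Slc7a8, the basolateral light chain LAT2 that also joins Slc3a2 (Entrez 84551, chromosome 15, 33369245 to 33428942, minus strand), had the smallest spread of the 8 tested transporters in controls but not on cholate. It was at 7.29, 7.82, 7.50, 8.34 and 7.95 CPM in control rats 1, 2, 5, 6 and 9, a coefficient of variation of 5.23%, and at 10.9, 6.45, 8.03, 7.39 and 7.59 CPM in cholate rats 3, 4, 7, 8 and 11, where it was 20.8%. The diets overlapped, with cholate rat 3 highest and cholate rat 4 lowest of the 10. The log2 fold change was 0.053 with a 95% interval of -0.33 to 0.44, so a change of 2-fold lay outside the interval (edgeR adjusted p = 0.882).

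The cystine and cationic amino acid carrier had a light chain at low level and almost no heavy chain. Slc7a9, its light chain (Entrez 116726, chromosome 1, 91709034 to 91738492, plus strand), ran from 1.09 to 2.01 CPM in controls and from 0.842 to 2.43 CPM on cholate, with overlap and a log2 fold change of 0.11 with a 95% interval of -0.61 to 0.83 (edgeR adjusted p = 0.870). Slc3a1, the heavy chain rBAT (Entrez 29484, chromosome 6, 8284937 to 8318649, plus strand), had 3 counts in control rat 1, 1 in cholate rat 4, 2 in cholate rat 7 and none in the other 7 rats. At this depth a library with no count allows up to 3, which is 0.082 to 0.228 CPM in these 7 rats. Slc3a1 shares 617 exon bases with Prepl on the opposite strand, so even these few counts are uncertain.

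Neither of the SLC1 carriers was called. Slc1a5, the glutamine carrier ASCT2 (Entrez 292657, chromosome 1, 78710686 to 78724789, plus strand), was at 45.8, 48.9, 55.2, 46.3 and 74.6 CPM in control rats 1, 2, 5, 6 and 9 and at 61.9, 64.8, 56.3, 74.6 and 88.6 CPM in cholate rats 3, 4, 7, 8 and 11. Every cholate rat lay above controls 1, 2, 5 and 6, and control rat 9 lay among the cholate rats. The log2 fold change was 0.35 with a 95% interval of -0.033 to 0.74 (edgeR adjusted p = 0.212). Leaving out 1 rat at a time gave 0.24 to 0.48 (edgeR adjusted p = 0.044 to 0.389). The largest change and the smallest adjusted p came without control rat 9, the highest control. Among the 6 rats that lay together the log2 fold change was 0.41, under the fold limit (edgeR adjusted p = 0.00867). This choice also leaves out control rat 9 and was made after seeing the data, so it is no separate support.

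Slc1a1, the glutamate and aspartate carrier EAAT3 (Entrez 25550, chromosome 1, 246955017 to 247035159, plus strand), was at 50.4, 53.0, 45.7, 52.0 and 28.6 CPM in control rats 1, 2, 5, 6 and 9 and at 50.5, 33.6, 49.2, 28.6 and 24.5 CPM in cholate rats 3, 4, 7, 8 and 11. The diets overlapped, and as for Slc6a14 the far libraries, control rat 9 and cholate rats 8 and 11, were lowest on their diets. The log2 fold change was -0.30 with a 95% interval of -0.83 to 0.23 (edgeR adjusted p = 0.459).

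The remaining peptide and amino acid carriers gave no call. Of 36 on the list, 22 passed the filter, none was called in either direction, and their median log2 fold change was 0.17, against -0.01 over all genes. Slc6a8, the creatine carrier, was at 200.4 to 298.9 CPM in controls and 310.2 to 432.7 CPM on cholate without overlap, a log2 fold change of 0.56 under the fold limit (edgeR adjusted p = 0.0206). Slc15a4, a lysosomal carrier of histidine and peptides, was at 20.9 ± 3.06 and 14.7 ± 1.83 CPM, a log2 fold change of -0.51 (edgeR adjusted p = 0.0517). Among the 6 rats that lay together, 1 carrier was called higher and 1 lower, where the same fit called 310 higher and 693 lower of 12648 genes. Of 9 partners of the transporters, 7 passed the filter and none was called, with the scaffold Slc9a3r1 nearest at 0.54 (edgeR adjusted p = 0.0773).

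Peptidases of the brush border and cytosol changed in both directions. Of 14 tested, 2 were called higher and 2 lower, against 1.1% and 2.12% of all genes tested, with a median log2 fold change of 0.015 against -0.01. The diets did not overlap in 3 that were higher and 3 that were lower, against 6.3% and 6.8% of all genes. Dpep1, a brush border dipeptidase, rose from 20.5 ± 9.21 to 133.2 ± 81.6 CPM, and Xpnpep2, a membrane-bound aminopeptidase that acts next to proline, rose from 1.499 ± 0.344 to 5.37 ± 1.40 CPM (edgeR adjusted p = 0.0043 and 0.00216). Enpep, the glutamyl aminopeptidase, fell from 16.1 ± 13.2 to 0.738 ± 0.482 CPM, and Naaladl1, a peptidase related to Folh1, fell from 24.7 ± 4.70 to 11.9 ± 1.41 CPM (edgeR adjusted p = 0.00318 and 0.00363). Control rat 1 had the most Enpep, 38.1 CPM against 2.76 to 16.2 CPM in the other controls, and without it the log2 fold change of Enpep went from -4.50 to -3.88, over 1.5 times in fold. Xpnpep2 stayed called whichever rat was left out. The calls of the others were lost without control rat 2 or cholate rat 4 or 7, those of Dpep1 and Naaladl1 also without control rat 6, that of Dpep1 without control rat 5 and that of Naaladl1 without control rat 1. Among the 6 rats that lay together, 2 peptidases were called higher and 4 lower, where calls over all genes rose from 136 to 310 higher and from 262 to 693 lower.

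Genes of the amino acid response, which the factor ATF4 drives when amino acids run short, had 2 of 18 tested called higher and none lower, against 1.1% and 2.12% of all genes tested, with a median log2 fold change of 0.47 against -0.01. Psat1, of serine synthesis, rose from 1.06 ± 0.465 to 5.30 ± 1.81 CPM, and the pseudokinase Trib3 rose from 1.77 ± 0.181 to 5.28 ± 1.82 CPM (edgeR adjusted p = 0.00378 and 0.00333). Atf4 itself was at 414.1 ± 71.6 and 354.7 ± 94.5 CPM (edgeR adjusted p = 0.491). Both calls were lost without control rat 2 or 6, that of Trib3 also without control rat 1 and that of Psat1 without cholate rat 4 or 7. Among the 6 rats that lay together, 4 of these genes were called higher and none lower, in the fit that called 310 higher and 693 lower over all genes.

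A list of 16 genes covered mTORC1, the growth-controlling kinase complex, its sensing of amino acids and its substrates. Of these 16, 1 was called lower and none higher, against 2.12% and 1.1% of all genes tested, with a median log2 fold change of 0.034 against -0.01. Rragd, a Rag GTPase that recruits the complex to the lysosome, fell from 10.2 ± 3.26 to 1.59 ± 0.557 CPM, a log2 fold change of -2.71 with a standard error of 0.33 (edgeR adjusted p = 0.00106). It stayed called whichever rat was left out. The other 15 were not called, with Rragc, a partner of Rragd, at 55.8 ± 8.71 and 59.0 ± 11.6 CPM (edgeR adjusted p = 0.809).

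**Figure D4:**
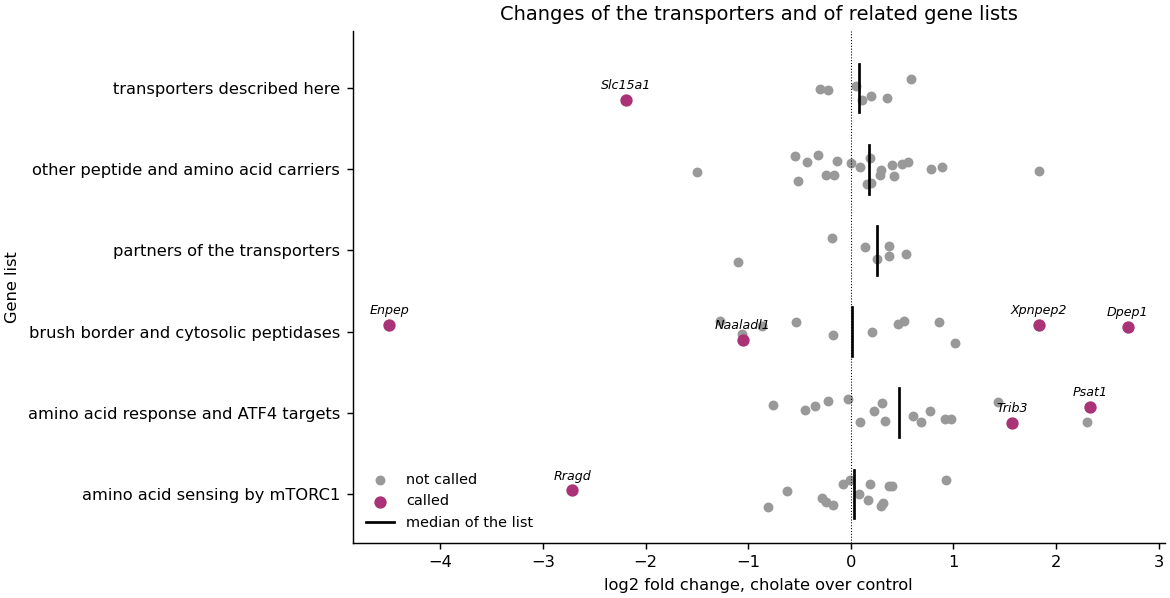
Log2 fold change of cholate over control for the 8 tested transporters and for the tested genes of 5 related lists, with 1 point per gene, called genes named and a vertical line at each list's median. Slc15a1 stands apart from the other 7 transporters, and the peptidases hold called genes on both sides of 0.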

How the data were processed

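RNA of distal colon epithelial cells was sequenced from 5 control and 5 cholate rats as stranded poly(A) libraries, per the labels' protocols. Reads were demultiplexed with bcl2fastq 1.8.4 and mapped with BWA 0.7.12-r1039, and rn6 is the build named, per the submitters' processing notes. No source used here says how reads were assigned to genes or whether strand was used. Every test used the deposited raw counts. The authors' normalized signal, scaled by TMM with edgeR 3.16.2 per the series' design text, was not used. The deposited effective length equalled the merged coding segments of the deposited annotation in 23422 of 23422 genes, so levels between genes are per coding length.

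In R 4.3.3, edgeR 4.0.16 was run with filterByExpr, TMM and the robust quasi-likelihood F test, with diet as the only term. Adjusted p is Benjamini-Hochberg over 12385 genes. Standard errors, derived from the F statistic and the fold change, and 95% intervals are approximate. Log2 CPM used a prior count of 2. The test was checked on counts simulated independently for each gene. Those counts lacked the shared variation of the first component, so the check does not cover it. Limma 3.58.1 and DESeq2 1.42.0 served as alternatives. The authors' criteria, an adjusted p under 0.01 and a fold over 2, defined a call. The intervals rest on the spread between the rats of a diet as fitted by the model, and the floor of 3 counts covers counting error only. Neither covers the choice of rats or of processing. The named genes were all 10 transporters, the called genes of each related list or, with none called, the 2 smallest adjusted p, and the 3 genes nearest to Slc15a1 over all rats and within diets. A gene that the rule names among the partners is not reported here. Atf4, Rragc and Tmem27 fall outside this rule and were picked with their values known. The members and lists were chosen with earlier results of these data known.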

Additional observations from a re-analysis of the deposited data

Results flagged for a closer look

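Over the 10 transporters and the named genes of the related lists, 42 groups of 5 rats were checked for a rat far from the others of its diet, and chance flags about 1 in 20 such groups. The check flagged 2. Slc3a2 was at 94.9 CPM in control rat 9, against 77.0 to 79.6 CPM in the other 4 controls. Slc3a1 was at 0.105 CPM in control rat 1, which is 3 counts, against 0 in the other 4 controls.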

How the results depend on the processing

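No paired analysis was possible because the rats of the diets carry different numbers. Genes called numbered 136 higher and 262 lower, and 1 transporter was called. The counts were 266 higher and 522 lower by DESeq2, 303 and 847 by limma-voom with quality weights, 16 and 34 by glmTreat, which called 0 transporters, and 802 and 902 at an adjusted p under 0.05 with no fold limit. Among control rats 1, 2 and 6 and cholate rats 3, 4 and 7, a setting chosen after seeing the data, they were 310 and 693. Leaving out 1 rat gave 59 to 152 higher, 109 to 298 lower and 0 to 1 transporters. The causes were not tested.

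Slc15a1 was below 0 in every setting run, from -2.50 to -2.17 with all rats or the 6 rats. Besides Slc15a1, glmTreat lost the calls of Xpnpep2, Dpep1, Enpep, Naaladl1, Psat1 and Trib3. Signs changed for 3 transporters that were not called. Slc7a8 was at -0.0012 with library size scaling and at -0.0021 by limma-voom with quality weights. Slc7a9 was at -0.031 by limma-voom, -0.15 with quality weights and -0.10 among the 6 rats. Leaving out 1 rat gave -0.031 to 0.45 for Slc6a14, -0.077 to 0.13 for Slc7a8 and -0.056 to 0.30 for Slc7a9. Slc7a9 fell below the stricter filter of 5 CPM. Depth limits Slc6a19 and Slc3a1, which no test reached.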
